A study of Danio rerio with 12 samples.

Results

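The genes for activin and inhibin subunits, follistatins and activin type II receptors were described in retinal RNA of adult zebrafish from 2 lineages. The group was chosen by its symbols, after the beta B subunit gene inhbb had shown a large difference between the lineages in these same values. Symbols of the FPKM table that begin with inha, inhba, inhbb or acvr2, or that read fsta or fstb, gave 8 genes of the 32674 listed. They were inhbb, inhbaa, inhbab, inha, fsta, fstb, acvr2aa and acvr2b (ENSDARG00000044422). RefSeq gives acvr2b as an older symbol of acvr2ba.

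Both lineages were EK strain fish. The founding F1 eggs spent 24 h in 0.03 µM methylmercury (abbreviated MeHg, a neurotoxic mercury compound) in the MeHg lineage, or in 0 µM MeHg in the control lineage, with ethanol as vehicle for both. The retinas came from F3 adults, which had met no added MeHg, and the series asks whether an ancestral exposure is seen in the retinal transcriptome. The labels name 6 biological replicates per lineage. They give no sex, no time of sampling and no number of fish per library. Values of 5 control libraries (numbers 3, 4, 5, 7 and 8) and 6 MeHg libraries (numbers 2 to 7) were used.

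Activins are dimers of beta subunits that signal outside the cell. They bind type II receptors, which recruit and phosphorylate type I receptors, and these phosphorylate the receptor-regulated Smads of the activin branch. Activin B is the dimer of beta B subunits. Inhibins join a beta subunit to the alpha subunit encoded by inha and oppose activin. Follistatins are secreted proteins that bind activins and keep them from their receptors.

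Depth and content of the libraries were checked first. By the companion table, control libraries held 2838155 to 5663021 fragments assigned to genes and MeHg libraries 4354466 to 6749645. Of 22 retinal markers sought, 19 were in the table and their summed level was 14820 to 43380 FPKM in control and 17670 to 24480 FPKM in MeHg libraries. All 19 were tested, with 3 called higher and 3 lower. Over all genes tested, 5.47% were called higher and 3.50% lower. The rod opsin gene rho was at 6346 to 20300 FPKM in control libraries and listed at 0 in all MeHg libraries. It thus held a large part of the control sums and no part of the MeHg sums. The rho gene was among the 3 called lower. The rod and cone transducin genes gnat1 and gnat2 were at 1168 FPKM or more in all libraries. The rod gene gnat1 was at 1269 to 3860 FPKM in control and 4437 to 6230 FPKM in MeHg libraries. Whether the listed 0 of rho reflects the level of its RNA was not tested. Control libraries 5 and 7 held oocyte transcripts. The 19 oocyte markers in the table summed to 1435 and 2714 FPKM there and to 1.95 to 8.75 FPKM in the other 9 libraries. Of these markers 17 were tested and 0 were called in either direction. The high values of control libraries 5 and 7 widen the spread within the control lineage. The absence of calls therefore says little about a difference between lineages. Of 30 genes of the circadian clock tested, 10 were called higher (against 5.47% of all genes) and 13 lower (against 3.50%). Among them nfil3-2, a bZIP repressor, was at 5.04 to 10.6 FPKM in control and 233 to 379 FPKM in MeHg libraries. Their part in the results below was not tested.

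The beta B subunit gene and 1 of the 2 follistatin genes were far higher in the MeHg lineage, while the beta A subunit gene inhbaa and both type II receptor genes differed little between lineages. Of the 8 genes, 7 reached the mean of 0.5 FPKM needed for the fit across all genes, and inha did not. In that fit 2 of the 7 were called higher, inhbb and fsta, and 0 lower (limma, Benjamini-Hochberg adjusted p under 0.05). Over all 20320 genes tested, 5.47% were called higher and 3.50% lower. Since inhbb was picked for this contrast, the count and the log2 differences of the 8 genes are given as a description, without a test. The same 2 genes were called without control libraries 5 and 7, where 3.64% of 19697 genes were called higher and 4.65% lower. Each lineage's RNA is from whole retina, so more cells of a type and more RNA per cell cannot be told apart.

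**Figure D1:**
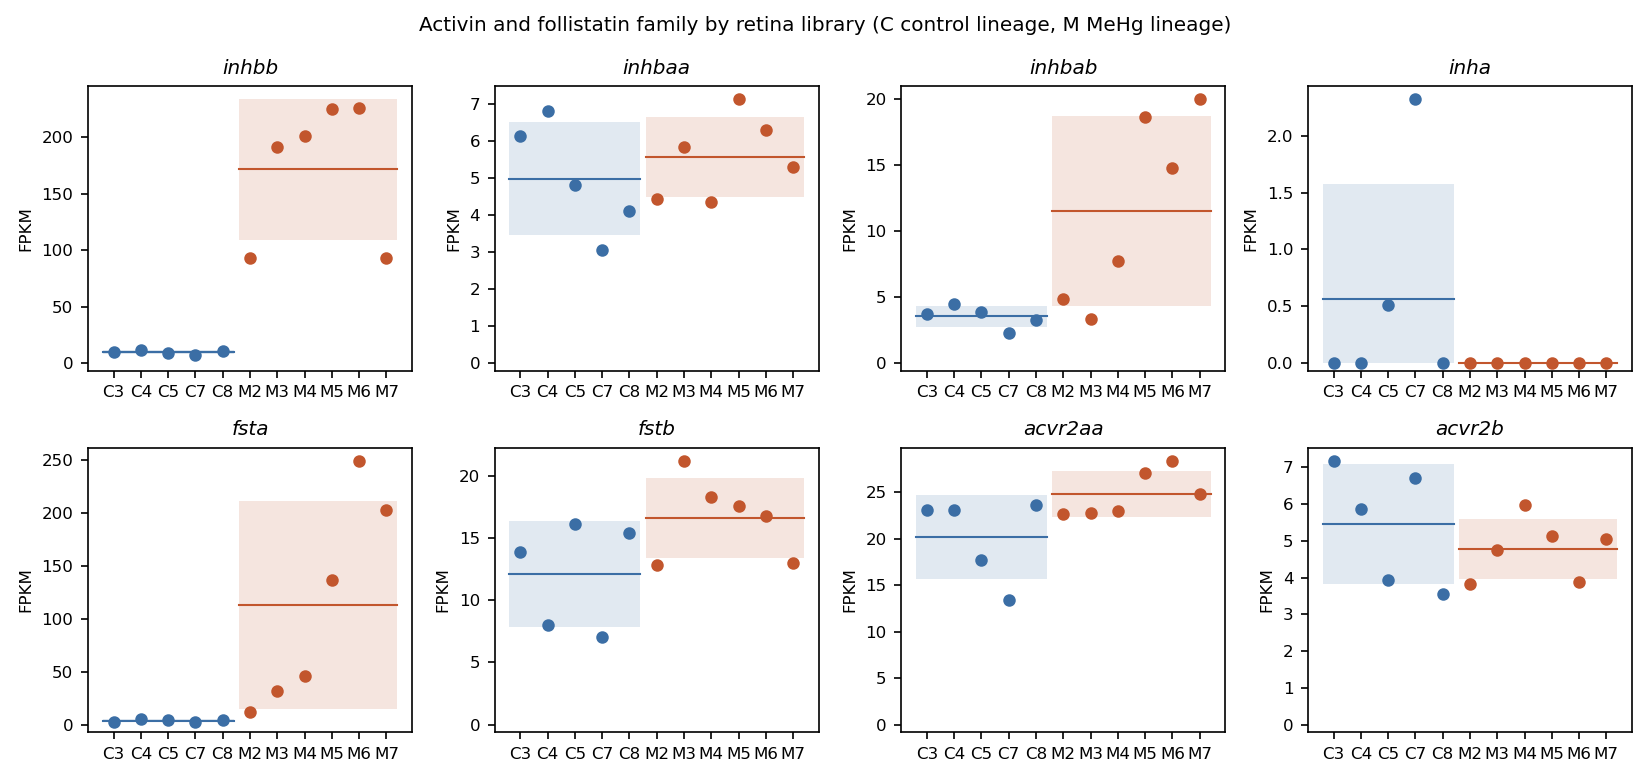
Level in FPKM (linear axes) of the 8 genes in each library; C marks control and M marks MeHg libraries by number, lines are lineage means and shaded bands ± SD. For inhbb and fsta every MeHg library lies above every control library, while the lineages overlap in the other 6 genes. The share of all genes that separate the lineages in this way was not counted.

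The beta B subunit gene, picked for its difference in these same values, held the widest gap of the beta subunits. The inhbb transcript (ENSDARG00000040777) was at 9.65, 11.1, 8.61, 6.80 and 10.9 FPKM in control libraries 3, 4, 5, 7 and 8. In MeHg libraries 2 to 7 it was at 93.2, 191, 201, 225, 226 and 93.2 FPKM. No values overlapped, and within the MeHg lineage libraries 2 and 7 were the lowest, near each other and apart from the other 4. The ratio of the lineage means was 18.2, and the log2 difference was 3.97 ± 0.27 (SE) on the log2(FPKM + 1) scale. The implied fragments of inhbb numbered 89 to 143 in control libraries and 1319 to 3662 in MeHg libraries, so that counting error was small beside the gap. Without control libraries 5 and 7 the log2 difference was 3.80 ± 0.32 (SE).

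The beta A subunit is encoded by a pair of zebrafish paralogs, of which 1 was at much the same level in both lineages. The inhbaa transcript (ENSDARG00000012671) was at 6.14, 6.80, 4.81, 3.05 and 4.09 FPKM in the control libraries in the same order. In the MeHg libraries it was at 4.43, 5.82, 4.35, 7.12, 6.29 and 5.30 FPKM. The lineages overlapped nearly throughout, and the log2 difference was 0.15 ± 0.20 (SE), or -0.02 ± 0.20 (SE) without control libraries 5 and 7.

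Its paralog inhbab (ENSDARG00000024759) was at 3.72, 4.44, 3.89, 2.31 and 3.23 FPKM in the control libraries. The MeHg libraries gave 4.81, 3.33, 7.72, 18.6, 14.8 and 19.9 FPKM. MeHg libraries 5, 6 and 7 lay well above all others, while MeHg library 3 fell within the control range. The log2 difference of inhbab was 1.25 ± 0.40 (SE) and the gene was not called, except in the fit without MeHg library 3, where the log2 difference was 1.51. The mean of inhbab was 3.28 times as high in the MeHg lineage, a value that rests on those 3 libraries.

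Among the beta subunit genes the share of inhbb shifted with the lineage. Such a shift was built in when inhbb was picked for its difference, so the shares are a description. It made up 49.5% to 59.9% of the summed FPKM of inhbb, inhbaa and inhbab in control libraries and 78.7% to 95.4% in MeHg libraries. The sum itself was 12.2 to 22.4 FPKM in control and 102 to 251 FPKM in MeHg libraries.

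The inhibin alpha subunit gene inha (ENSDARG00000052433) was listed at 0 in 9 libraries. It was at 0.514 FPKM in control library 5 and 2.32 FPKM in control library 7, from 2 and 18 implied fragments. These are the libraries with oocyte transcripts, and the superfamily ligands of the oocyte showed the same layout. The oocyte growth factor gene gdf9 was at 4.06 and 8.38 FPKM there and reached no more than 0.182 FPKM in any other library, and bmp15 was at 12.4 and 29.6 FPKM against 0.287 FPKM or less. The 12 ovarian follicle markers in the table, inha among them, summed to 27.3 and 63.8 FPKM in control libraries 5 and 7 and to 4.54 to 25.8 FPKM in the other 9. The share of oocyte or ovarian tissue in the inha values was not tested.

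The follistatin paralogs also parted. The fsta transcript (ENSDARG00000052846) was at 2.12, 5.0, 4.12, 2.01 and 4.53 FPKM in control libraries 3, 4, 5, 7 and 8. In MeHg libraries 2 to 7 it reached 12.0, 31.7, 45.6, 136, 249 and 203 FPKM. All MeHg values exceeded all control values, and MeHg libraries 5, 6 and 7 were again the highest. The spread within the MeHg lineage was wide, with a mean of 113 ± 98.5 FPKM (SD, n = 6) against 3.55 ± 1.40 FPKM (SD, n = 5) in the control lineage. The log2 difference was 4.04 ± 0.68 (SE), and 3.94 ± 0.85 (SE) without control libraries 5 and 7. Control libraries held 19 to 40 fsta fragments each, which limits the precision of the lower level.

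For fstb (ENSDARG00000057992) the control libraries gave 13.9, 8.01, 16.1, 7.02 and 15.4 FPKM, and the MeHg libraries 12.8, 21.2, 18.3, 17.6, 16.8 and 13.0 FPKM. The lineages overlapped, with a log2 difference of 0.48 ± 0.23 (SE). In sum fsta made up 13.2% to 38.4% of the summed follistatin FPKM in control libraries and 48.3% to 94.0% in MeHg libraries.

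Set against its ligand, follistatin did not keep 1 proportion within the MeHg lineage. The ratio of fsta to inhbb, both per length, was 0.219 to 0.478 in control libraries. The MeHg libraries 2 to 7 gave 0.129, 0.166, 0.227, 0.606, 1.1 and 2.18. MeHg libraries 2 and 3 thus lay below the control range, library 4 within it and libraries 5, 6 and 7 above it. Libraries 2 and 7 had the same inhbb level of 93.2 FPKM with fsta at 12.0 and 203 FPKM. The ratio of both follistatins to the 3 beta subunits covered 0.582 to 1.17 in control and 0.243 to 1.82 in MeHg libraries, so the lineages overlapped in it.

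**Figure D2:**
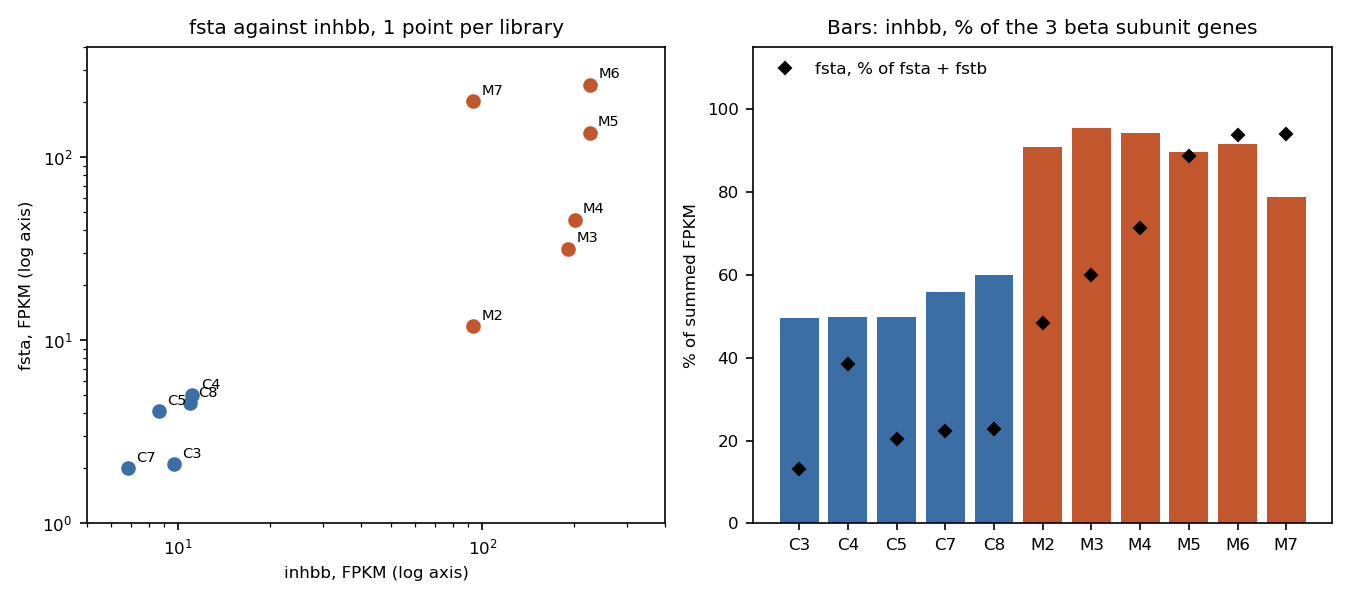
Left, fsta against inhbb in FPKM on log axes, 1 point per library; right, by library, bars give the percentage of inhbb in the summed FPKM of 3 beta subunit genes and diamonds that of fsta in the sum of both follistatins. MeHg libraries (orange, M) have inhbb at 93.2 to 226 FPKM and an inhbb share of 78.7% to 95.4%, control libraries (blue, C) one of 49.5% to 59.9%.

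What else the MeHg libraries with high fsta held was measured with marker lists. The lens and cornea list, of which 4 of 13 genes were tested and 0 called, summed to 126 and 88.7 FPKM in MeHg libraries 6 and 7, against 2158 to 4213 FPKM in the other MeHg libraries and 1892 to 9697 FPKM in control libraries. The lens genes cryaa, crygmx and mipb were listed at 0 in all libraries. Skeletal muscle markers had 9 of 12 tested and 0 called. They summed to 79.6, 30.5 and 7.16 FPKM in MeHg libraries 5, 6 and 7. The sums were 486, 166 and 85.1 FPKM in MeHg libraries 2, 3 and 4, and 64.4 to 524.6 FPKM in control libraries. MeHg library 5 thus lay within the control range. The part of neighbouring tissue in the fsta levels was not tested.

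The type II receptor genes differed little between the lineages. The acvr2aa transcript (ENSDARG00000011188), for an activin type II receptor, was at 23.1, 23.2, 17.7, 13.4 and 23.6 FPKM in control libraries. The MeHg libraries gave 22.7, 22.7, 23.0, 27.1, 28.4 and 24.8 FPKM. Only control libraries 5 and 7 lay below all others, and the log2 difference of 0.31 ± 0.16 (SE) became 0.08 ± 0.12 (SE) without them. The other receptor gene, acvr2b, was at 7.18, 5.87, 3.93, 6.71 and 3.55 FPKM in control libraries and at 3.84 to 5.98 FPKM in MeHg libraries. Its log2 difference was -0.13 ± 0.19 (SE), on 10 to 43 implied fragments per library.

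Within each lineage the genes were put in order of mean FPKM. In the control lineage the order was acvr2aa (20.2 ± 4.5 FPKM; SD, n = 5), fstb (12.1 ± 4.26), inhbb (9.42 ± 1.78), acvr2b (5.45 ± 1.63), inhbaa (4.98 ± 1.51), fsta (3.55 ± 1.40) and inhbab (3.52 ± 0.802). Neighbours were compared in pairs within libraries by a two-sided exact sign-flip permutation test, which cannot go below 0.0625 with 5 libraries. acvr2aa exceeded fstb, and inhbb exceeded acvr2b, in 5 of 5 libraries (exact p = 0.0625 each). The other neighbours changed places in at least 1 library, with fsta above inhbab in 3 of 5 (exact p = 0.875) and acvr2b above inhbaa in 2 of 5 (exact p = 0.813).

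In the MeHg lineage the order was inhbb (172 ± 62.2 FPKM; SD, n = 6), fsta (113 ± 98.5), acvr2aa (24.8 ± 2.46), fstb (16.6 ± 3.24), inhbab (11.5 ± 7.19), inhbaa (5.55 ± 1.08) and acvr2b (4.77 ± 0.818). The difference between acvr2aa and fstb had the same sign in 6 of 6 libraries (exact permutation p = 0.0313, the smallest possible, and 0.188 adjusted over the 6 neighbour pairs). inhbb stood above fsta in 4 of 6 libraries (exact permutation p = 0.188). With so few libraries no control pair could pass this test, and a lone MeHg pair at the smallest possible p could not pass after adjustment, so the test does not show whether neighbours differ.

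The pathway around these genes was read from the same fit across all genes. Its lists were chosen with earlier results of these data known. Their shares beside those of all genes are therefore a description and no independent evidence. Lists of superfamily ligands, receptors, co-receptors, antagonists, proconvertases, Smads with their regulators, and target genes held 119 genes of the table beyond the 8, of which 103 were tested. Of the 103, 13 rose (12.6%, against 5.47% of all genes), 4 fell (3.88%, against 3.50%) and 86 did not pass. Their median log2 difference was 0.10, against 0.02 over all genes tested. Without control libraries 5 and 7, 10 of 99 rose (10.1%, against 3.64% of all genes) and 5 fell (5.05%, against 4.65%), the latter near the share of all genes. Leaving out MeHg library 4 alone gave 7 that fell.

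**Figure D3:**
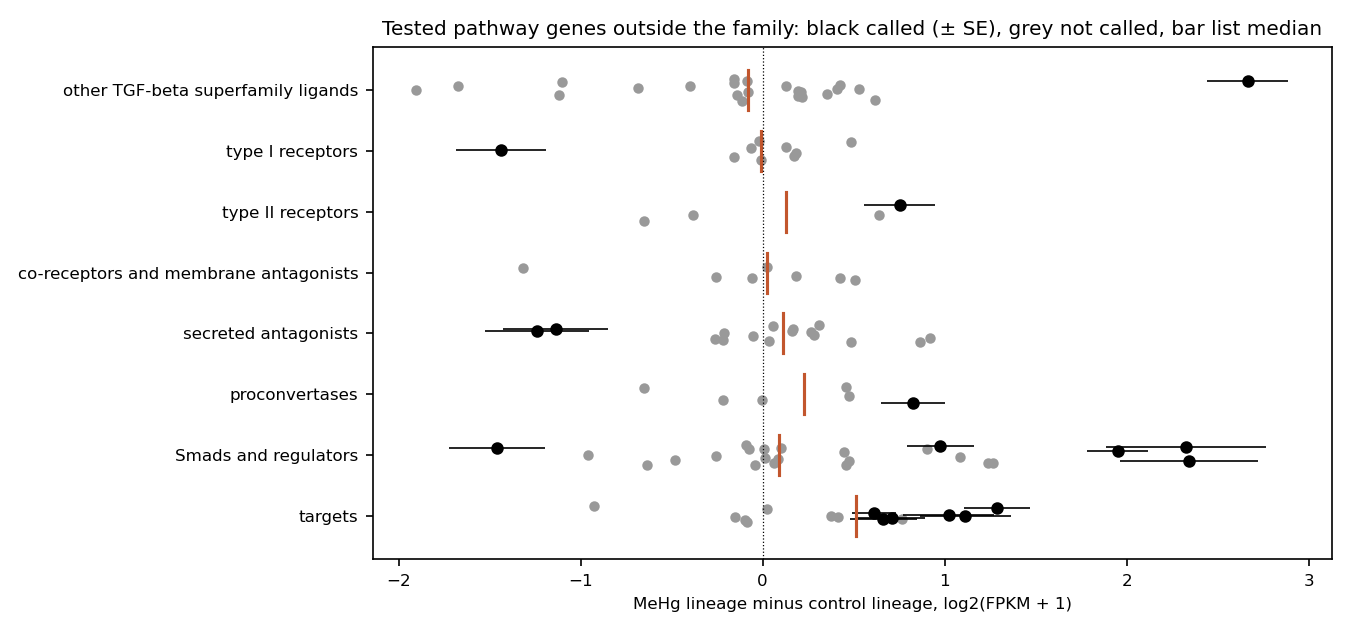
Difference between lineages on the log2(FPKM + 1) scale for 103 tested pathway genes outside the family, 1 row per role; black points (± SE) passed, grey points did not, and orange bars are list medians. Of the genes that passed, 13 lie to the right of 0 and 4 to the left.

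Of 24 Smad genes and regulators 4 rose (16.7%, against 5.47% of all genes) and 1 fell (4.17%, against 3.50%). Their median log2 difference was 0.09. The inhibitory Smad gene smad7, which blocks type I receptors, was at 53.0, 26.7, 20.4, 15.01 and 23.4 FPKM in control libraries 3, 4, 5, 7 and 8. MeHg libraries 2 to 7 gave 58.5, 85.8, 138, 160.0, 227 and 213 FPKM. The lineages did not overlap, although control library 3 came close to MeHg library 2, and the log2 difference was 2.34 ± 0.38 (SE; limma adjusted p = 0.00216).

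The corepressor gene skilb, of the SKI family that binds Smads, rose from 5.49 to 14.7 FPKM in control libraries to 17.8, 25.5, 40.8, 57.3, 88.6 and 121 FPKM in the MeHg libraries (log2 difference 2.33 ± 0.44 SE; limma adjusted p = 0.00554). As with fsta, MeHg libraries 5, 6 and 7 were the highest for both smad7 and skilb. The homeodomain corepressor gene tgif1 rose from 11.5 to 17.2 FPKM in control libraries to 46.3 to 75.3 FPKM in MeHg libraries (log2 difference 1.95 ± 0.17 SE; limma adjusted p = 2.18e-05). The ubiquitin ligase gene smurf2, whose product marks receptors and Smads for breakdown, rose less, by 0.98 ± 0.18 (SE) on the log2 scale (adjusted p = 0.00529 by limma).

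The Smad gene that fell in the fit of all 11 libraries was smad3a, whose product carries activin and TGF-beta signals to the nucleus. Its control libraries held 14.7, 26.1, 18.8, 14.3 and 23.5 FPKM, and its MeHg libraries 12.0, 8.38, 4.67, 6.17, 5.51 and 3.54 FPKM. The lineages did not overlap, and the log2 difference was -1.46 ± 0.26 (SE; limma adjusted p = 0.00432). Without control libraries 5 and 7 its paralog smad3b fell too (log2 difference -0.94 ± 0.15 SE; limma adjusted p = 0.00369). In that fit smad5 rose (log2 difference 1.58 ± 0.32 SE; limma adjusted p = 0.01215). Of 23 genes of the list tested there, 5 rose (21.7%, against 3.64% of all genes) and 2 fell (8.70%, against 4.65%).

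Of 9 type I receptor genes only acvr1c passed, and it fell (11.1%, against 3.50% of all genes). Its product is known in mammals as a receptor for activin B and nodal. The level fell from 32.4, 33.8, 21.1, 11.5 and 25.6 FPKM in control libraries to 6.24 to 9.44 FPKM in MeHg libraries, without overlap (log2 difference -1.44 ± 0.25 SE; limma adjusted p = 0.00315). The symbol of this gene came from the reference list of names. Of 4 type II receptor genes beyond acvr2aa and acvr2b, 1 rose (25.0%, against 5.47% of all genes). It was the bone morphogenetic protein receptor gene bmpr2a, higher by 0.75 ± 0.19 (SE) on the log2 scale (adjusted p = 0.0304 by limma). That call was lost without control library 5 or 8 or MeHg library 3, 5, 6 or 7 (adjusted p up to 0.0785) and without control libraries 5 and 7 together (0.124).

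Of 23 genes tested in the list of other superfamily ligands only mstna passed, and it rose (4.35%, near the 5.47% of all genes). That list also held bmp1a, a tolloid-type protease gene like bmp1b (log2 difference 0.19, adjusted p = 0.412 by limma). The mstna gene encodes a myostatin, a ligand that in mammals uses the same type II receptors and is bound by follistatin. It was at 1.75 to 3.84 FPKM in control and 15.1 to 33.6 FPKM in MeHg libraries (log2 difference 2.67 ± 0.22 SE; limma adjusted p = 2.11e-05). The list median was -0.08. The ligands gdf9 (log2 difference -1.12, adjusted p = 0.222) and bmp15 (-1.67, adjusted p = 0.242) did not pass in this limma fit, and without control libraries 5 and 7 they were too low to be tested.

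**Figure D4:**
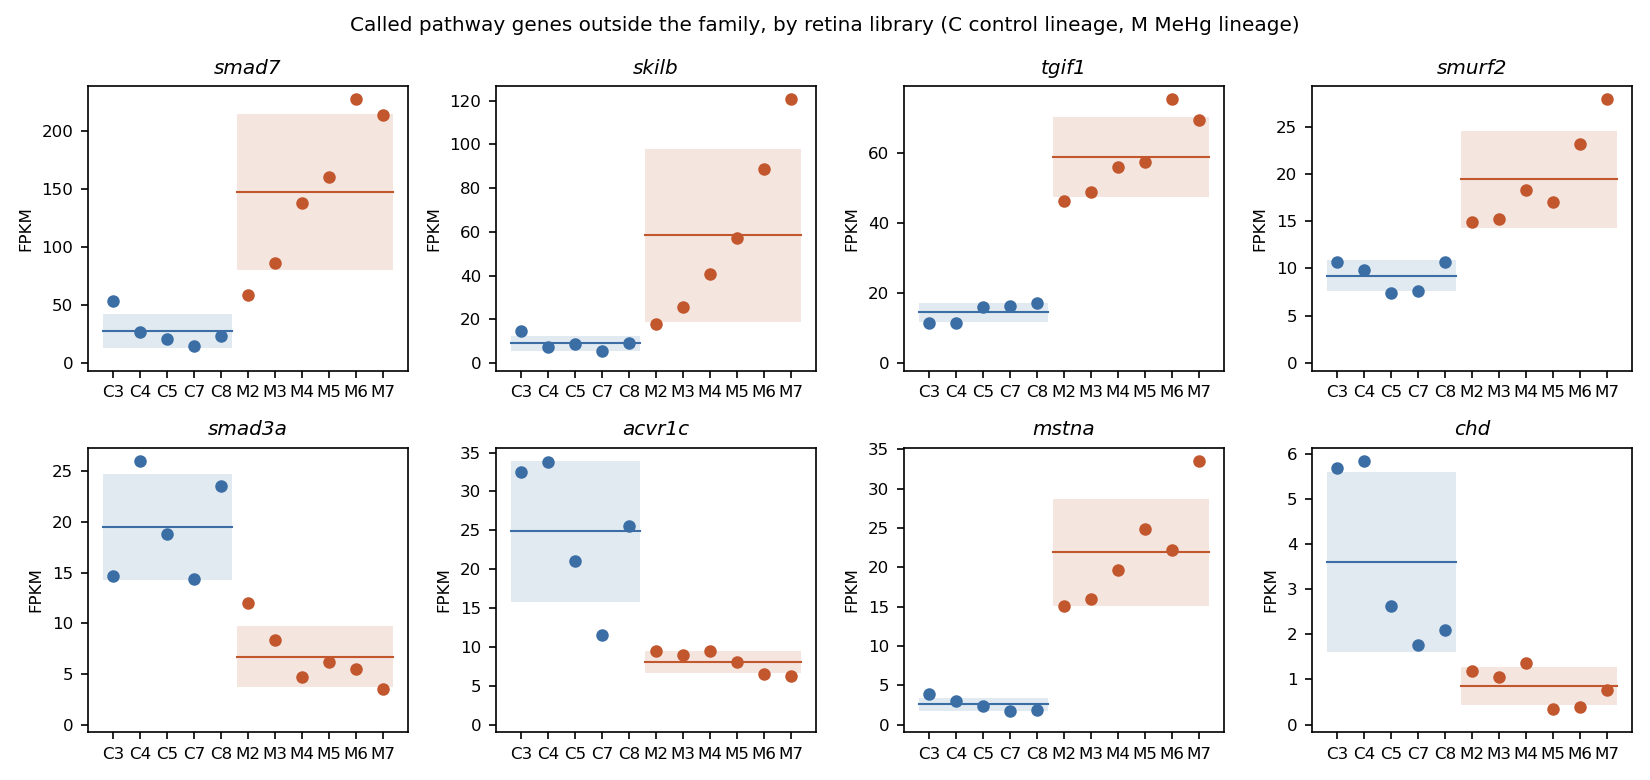
Level in FPKM (linear axes) of 8 pathway genes that passed the test, by library, drawn as in the plot of the family, with lines for lineage means and bands for ± SD. smad7, skilb, tgif1, smurf2 and mstna are higher, and smad3a, acvr1c and chd lower, in every MeHg library than in every control library. Other genes that passed are not drawn. Some of them, such as bmp1b and htra1b, overlap between the lineages, and others, such as gadd45bb and id2a, do not. Here too the share of all genes that separate the lineages was not counted.

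Secreted antagonists other than follistatins gave few calls. Of 16 tested, 0 rose and 2 fell (12.5%, against 3.50% of all genes). The list median was 0.11, so the list as a whole did not fall. Chordin, chd, which binds bone morphogenetic proteins, went from 1.77 to 5.85 FPKM in control libraries to 0.350 to 1.36 FPKM in MeHg libraries (log2 difference -1.24 ± 0.29 SE; limma adjusted p = 0.0185). The secreted protease gene htra1b fell by 1.14 ± 0.29 (SE) on the log2 scale (adjusted p = 0.0282 by limma), a call lost without control library 5 or 8 or MeHg library 5, 6 or 7 (adjusted p up to 0.0661). The list of proconvertases and tolloid-type proteases, which left out bmp1a, had 1 of 6 tested genes higher (16.7%, against 5.47% of all genes). That gene, bmp1b, rose by 0.83 ± 0.18 (SE) on the log2 scale (adjusted p = 0.0121 by limma). Of 7 co-receptor and membrane antagonist genes 0 passed by limma. The smallest p values there were those of bambia (log2 difference 0.42, adjusted p = 0.170) and of tdgf1, a nodal co-receptor gene at 5.22 and 11.3 FPKM in control libraries 5 and 7 and at most 0.583 FPKM elsewhere (adjusted p = 0.200).

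Target genes of the superfamily numbered 14, of which 6 rose (42.9%, against 5.47% of all genes) and 0 fell (0%, against 3.50%). The list median was 0.51. Leaving out control libraries 5 and 7 left 3 that rose (21.4%, against 3.64% of all genes) and 0 that fell (0%, against 4.65%). The list median was then 0.45. The growth arrest gene gadd45bb rose from 5.90 to 11.6 FPKM in control to 15.5 to 25.0 FPKM in MeHg libraries (log2 difference 1.29 ± 0.18 SE; limma adjusted p = 0.00088). Its paralog gadd45ba rose by 1.11 ± 0.25 (SE) on the log2 scale (adjusted p = 0.0150 by limma), and id2a, an inhibitor of bHLH factors, by 0.61 ± 0.12 (SE; limma adjusted p = 0.00762). The calls of id2b (log2 difference 0.71, limma adjusted p = 0.0304) and of the cell cycle inhibitor gene cdkn1a (1.02, adjusted p = 0.0231) depended on single libraries. That of id2b was lost without control library 4, 5 or 7 or MeHg library 3, 5, 6 or 7 (adjusted p up to 0.0896), and that of cdkn1a without control library 4 or 5 or MeHg library 5, 6 or 7 (up to 0.0569). Without control libraries 5 and 7 together their adjusted p was 0.148 and 0.0881. The remaining gene of the 6 that rose was id3 (log2 difference 0.66 ± 0.18 SE, limma adjusted p = 0.0417). The id3 call held in 10 of 23 fits, the main one included. It was lost without control libraries 5 and 7 together (limma adjusted p = 0.0843).

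Genes with a profile most like inhbb were sought among 12972 tested genes with an assigned symbol. Likeness was the mean absolute difference over the 11 libraries in log2(FPKM + 1), centred on each gene's own mean, and it favours genes that differ between the lineages. The 5 nearest were mex3b (0.49), an RNA-binding protein gene, fbxl3l (0.49), an F-box gene, kif26aa (0.53), of the kinesin family, nfil3-2 (0.55) and ccdc88aa (0.58). For mex3b the control libraries covered 6.55 to 10.7 FPKM and the MeHg libraries 46.8 to 124.8 FPKM. By the same measure fsta ranked 24th, at 0.85.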

How the data were processed

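Per the labels' protocols, retinal total RNA was made into TruSeq libraries and read in pairs of 100 bases. The submitters' processing notes name the tools (CASAVA 1.8.2, TopHat, Cuffnorm, FastQC, cutadapt) and the build, Zv9. The annotation, the strand setting and further versions were not stated there, and no genome was used. The deposited FPKM are fragment numbers per gene length and library size. The deposited companion table was treated as a signal, fragment numbers over a library size factor. Between 98.3% and 98.6% of its values per library lay within 0.01 of a whole multiple of a library step, which gave the implied fragments, but this was not close enough for a count test. Each file had a column with no name (2 in all), used in no step, and control replicate 1 was not analysed here. P-values measure the spread between these libraries and not between lineages, since each concentration had 1 lineage. The ancestral exposure therefore cannot be told apart from any other difference between the lineages.

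The test took genes whose mean reached 0.5 FPKM, on log2(FPKM + 1) with limma 3.58.1 in R 4.3.3 (eBayes with trend, Benjamini-Hochberg adjustment, threshold 0.05), MeHg minus control lineage. The scale understates changes of low genes. No label says that the replicate number pairs fish, so no block was used. Same-numbered libraries of the lineages did not deviate together from their lineage means (4 correlations, -0.23 to -0.01). Members and lists were chosen with earlier results of these data known. Named pathway genes are the 12 with the smallest p per direction, the 2 smallest of lists without a call, gdf9 and bmp15. Beyond this rule smad3b, smad5, bmp1a and id3 are also named. The retina, oocyte, ovarian follicle, lens and cornea, muscle and clock lists are given in the report. Of the other marker lists, pigment epithelium genes had 2 higher and 3 lower of 12 tested, and blood 0 and 0 of 5. Microglia and leukocytes had 0 and 1 of 8, and optic nerve glia and vessels 1 and 0 of 10. The shares over all genes tested were 5.47% higher and 3.50% lower.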

Additional observations from a re-analysis of the deposited data

Results flagged for a closer look

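Among the family and the named pathway genes, 3 values in 55 groups of libraries stood apart from their group by Dixon's test at the 95% level, where chance flags about 1 in 20 groups. The inha value of 2.32 FPKM in control library 7 was far from the other control libraries, at 0 to 0.514 FPKM. The cdkn1a value of 4.52 FPKM in control library 3 was far from the others, at 2.08 to 2.61 FPKM. The bmp15 value of 0.287 FPKM in MeHg library 5 was far from the others, at 0 to 0.106 FPKM.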

How the results depend on the processing

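The log2 differences of the 7 tested family members moved by less than the spread between replicates in all 22 alternative fits. They ranged from 3.80 to 4.13 for inhbb and from 3.68 to 4.54 for fsta. These ranges describe the processing only, since inhbb was picked for its difference in these same values. Of 16 pathway genes that passed and were named by smallest p, 12 kept their call in all alternatives other than the fixed-effect replicate block. Of these 12 only mstna and tgif1 kept it there too. The other 4, bmpr2a, cdkn1a, htra1b and id2b, also lost it elsewhere. The number of all genes called was 1824 and ranged from 1177 (without control replicate 5) to 1905 when single libraries were left out. The replicate number as a block (duplicateCorrelation, correlation -0.24) left 1381 calls, without those of id2b (adjusted p = 0.0687) and htra1b (adjusted p = 0.0733). As fixed effects in the 8 libraries with shared numbers the replicate block left 151 calls, 2 higher and 0 lower among pathway genes. No pair of numbers correlated above 0.1, and those libraries are fewer. Pathway genes called lower numbered 7 with array weights; leaving out single libraries gave 3 to 7 (7 without MeHg replicate 4). The pathway genes called higher numbered 9 to 14 when single libraries were left out. Of the level order, acvr2b over inhbaa turned from 0.11 to -0.049 without control libraries 5 and 7 and spanned -0.0956 to 0.1951 without single control libraries, and fsta over inhbab spanned -0.1321 to 0.1141. Quantile normalization and a shift of libraries to 1 median reversed no named difference. The count test on recovered reads was not run, because the values did not give whole reads closely enough. Genes with few fragments, such as acvr2b and inha, are limited by depth.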
